A study of Mus musculus with 4 samples.

Results

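The genes described here were Vcam1 and its relatives in leukocyte adhesion, 7 of the 55450 genes in the files. They were chosen by name. Vcam1, Icam1 and Icam2 encode ligands of the immunoglobulin family, and Itga4, Itgb7, Itgal and Itgb2 encode integrin subunits that bind such ligands. Vcam1 was put forward because its whole-testis level differed between the diets, so its diet contrast is described below without a test.

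Dissociated mouse testis was profiled by droplet single-cell RNA sequencing, with 4 libraries in all. HFD 1 and HFD 2 were made from mice fed a high-fat diet, and ND 1 and ND 2 from mice fed a normal one. The sources used here do not give strain, age, diet composition or time on diet, and no label says that each library came from a different mouse. P-values therefore measure the spread between these libraries, which may be technical. The cells had been freed with collagenase, dispase and DNase.

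Leukocytes leave the blood by rolling on the vessel wall, being activated by chemokines and then arresting through integrins. VCAM-1 is the ligand of alpha 4 integrins, in which the Itga4 product pairs with the product of Itgb1 or Itgb7. ICAM-1 and ICAM-2 are ligands of LFA-1, the pair formed by the products of Itgal and Itgb2. Cytokines such as TNF and interleukin 1 are known to induce VCAM-1 and ICAM-1 on endothelium through NF-kB. In the testis, Leydig cells make testosterone in the interstitium, where macrophages lie closely beside them.

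After filtering, 13122 to 14468 cells per library were kept, with a median of 5509.5 to 5946 unique molecular identifiers (UMIs, counts of single RNA molecules) per cell. Clusters were named from marker lists, and the 7 genes had been left out of the clustering genes. The Leydig-like class held 1262 cells, in which all 7 genes of the Leydig list were detected. There were 316 macrophage-like, 289 lymphocyte-like, 279 fibroblast-like, 44 endothelial-like and 15 dendritic-like cells. The dendritic-like cells held 4 of the 6 genes of their list, at 228 to 671 summed CPM per library. They held the macrophage list at 836 to 1443 CPM. Of the 54917 kept cells, 21593 stayed unnamed, 36.3% to 42.0% per library. The unnamed cells held 8.67% of the Vcam1 UMIs and 20.4% of the Itgal UMIs. A cluster of 82 cells led by Rgs5, a pericyte gene, is called by that gene, since it held the pericyte list at 35.8 to 289 summed CPM per library but the fibroblast list at 593 to 1996 CPM. Levels are in CPM, a gene's UMIs per 1000000 UMIs of the class and library, and the fold between diets comes from a fit to UMI counts summed per library. With 2 libraries a diet, the values of many unchanged genes would not overlap either. The share of all genes whose diets did not overlap was not worked out. Cell barcodes shared by any 2 libraries came to at most 0.465% of the smaller library.

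**Figure D1:**
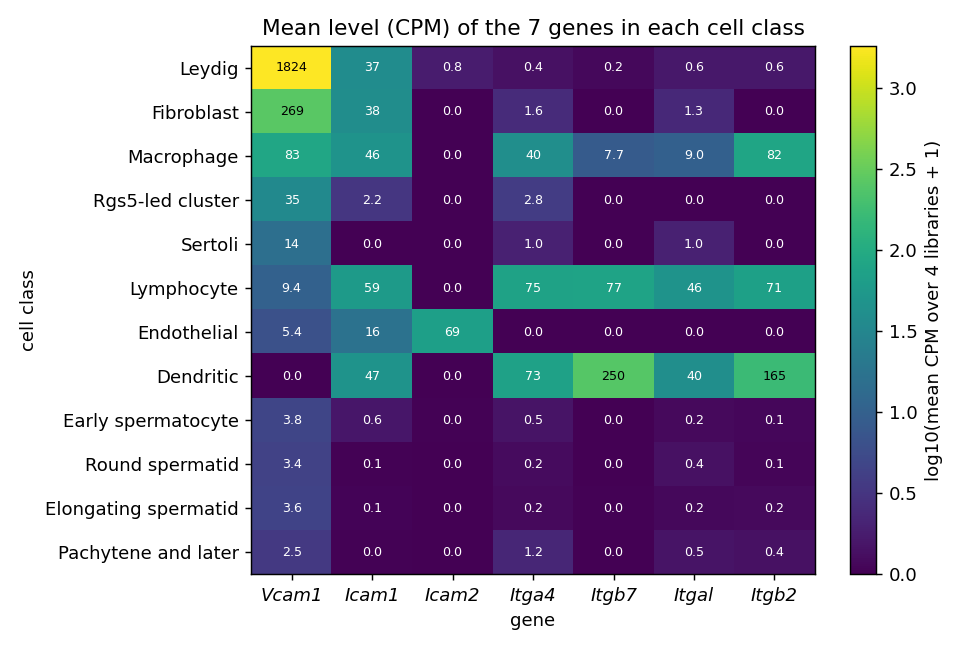
Mean level in CPM over the 4 libraries for each of the 7 genes (columns) in each named cell class (rows), with the colour on a log10 scale of CPM + 1. Read down a column: Vcam1 peaked in Leydig-like cells at 1824 CPM, Icam2 in endothelial-like cells, Itga4 and Itgal in lymphocyte-like cells, and Itgb7 and Itgb2 in the 15 dendritic-like cells.

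Vcam1 was a Leydig-like transcript in these testes. Leydig-like cells held 78.0% and 79.9% of all Vcam1 UMIs in the HFD libraries and 86.3% and 82.8% in the ND libraries. The gene lies on the minus strand of chromosome 3 (GRCm38, chr3:116109949-116129688) and is protein coding. An antisense gene, Gm43109, overlaps its 5′ end by 1238 bases. At least 1 Vcam1 UMI was found in 1207 of the 1262 Leydig-like cells, or 95.6% (exact 95% interval 94.4% to 96.7%). When cells were thinned to 1500 UMIs, with cells that held fewer left out, the share was 86.2%. Fibroblast-like cells came next, with a Vcam1 UMI in 37.6% of cells, or 33.1% after thinning. The interval covers counting error only. Round spermatids, a germ-cell class given for comparison, had a Vcam1 UMI in 5.14% of cells, or 0.394% after thinning. Their median was 13015 UMIs per cell, against 5793 in Leydig-like cells.

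By mean level over the 4 libraries, Vcam1 stood at 1824 ± 314 CPM (SD, n = 4) in Leydig-like cells and 269 ± 63.2 CPM in fibroblast-like cells. Every Leydig-like value lay above every fibroblast-like value. Macrophage-like cells held 83.3 ± 43.6 CPM and the Rgs5-led cluster 34.7 ± 7.01 CPM, on 11 UMIs. The ranges of these 2 groups of cells overlapped, and all 4 fibroblast-like values were above both. Sertoli-like cells, which nurse the germ cells, held 14.5 ± 6.55 CPM and lymphocyte-like cells 9.38 ± 7.36 CPM, again with overlapping ranges. The 4 germ-cell classes had means from 2.52 to 3.76 CPM, and their single clusters held 2.06 to 7.73 CPM over all libraries. The part of free RNA in these low values was not tested.

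Endothelial-like cells, the textbook site of inducible VCAM-1, gave 1 Vcam1 UMI in 44 cells, from HFD 2. The class held 10 of the 11 endothelial markers, at 2299 to 4424 summed CPM per library. With so few cells, a low level of Vcam1 could not be detected there. No Vcam1 UMI was seen in the 15 dendritic-like cells.

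**Figure D2:**
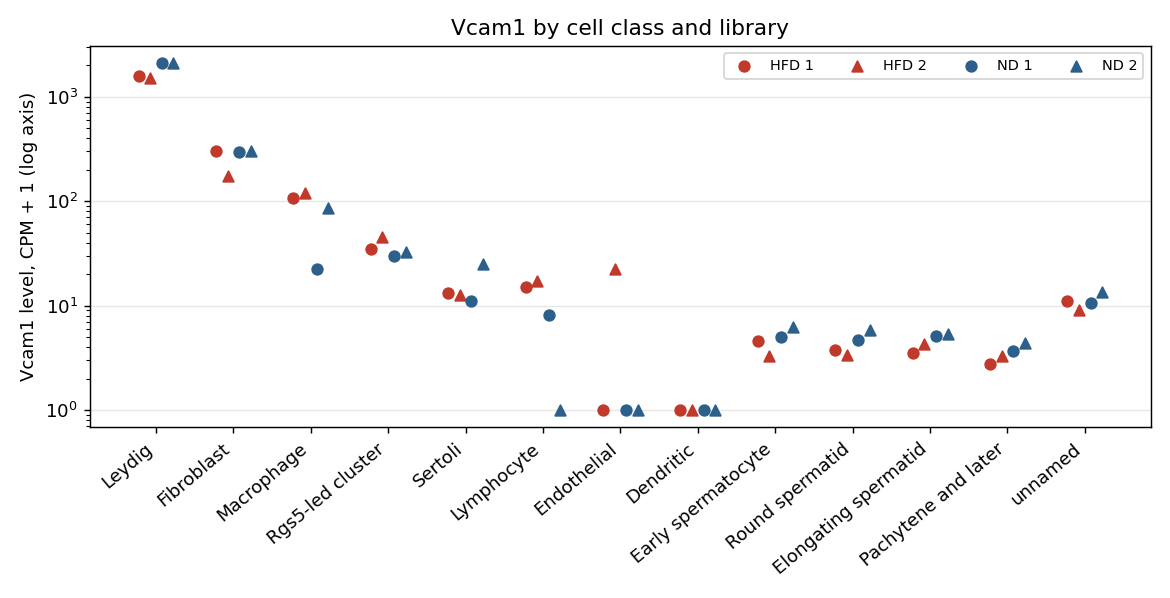
Vcam1 level (CPM + 1, log axis) in each cell class, with 1 point per library, red for HFD and blue for ND. Points at 1 hold no Vcam1 UMI. Leydig-like cells stand highest, fibroblast-like cells second, and the germ-cell classes sit together near the bottom.

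The genes whose level across the 12 named classes was most like that of Vcam1 were Cers6, Akr1cl, Aldh1a1, Fxyd1 and Star. Pearson's r of log2(CPM + 1) was 0.964, 0.963, 0.962, 0.957 and 0.956 in that order. Star encodes the protein that carries cholesterol into mitochondria for steroid synthesis, and Aldh1a1 a retinaldehyde dehydrogenase. These are correlations over classes of the same 4 libraries and describe the pattern only. Among the other members, Icam1 had an r of 0.43 with Vcam1, and the 4 integrin subunits had values from -0.30 to -0.14.

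Within Leydig-like cells, Vcam1 was lower in both HFD libraries than in both ND libraries. The class gave 2411 Vcam1 UMIs (1582 CPM) in HFD 1 and 2198 (1524 CPM) in HFD 2. It gave 4410 (2092 CPM) in ND 1 and 4457 (2098 CPM) in ND 2. The groups did not overlap, with means of 1553 ± 41.2 CPM in HFD and 2095 ± 4.40 CPM in ND (SD, n = 2 each). The fitted log2 ratio of HFD over ND was -0.47, a 0.72-fold level. The 7 Leydig markers had summed levels in the class, lower in HFD as well, of 15778 and 15651 CPM in HFD and 20549 and 17087 CPM in ND, and their part in the Vcam1 difference was not tested. As this contrast belongs to the choice of the gene, no test is given, and 4.48% of the 11594 genes tested in this class were called in either direction.

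Single cells differed in the same direction as the sums, which are made of these same cells, so this adds no support. The median Leydig-like cell held 9 and 8 Vcam1 UMIs in HFD 1 and HFD 2, and 11 in each ND library. Scaled to each cell's own UMIs, the medians were 1351 and 1327 CPM in HFD 1 and HFD 2. In ND 1 and ND 2 they were 1852 and 1899 CPM. The middle 50% of cells spanned 4 to 15.5 UMIs in HFD 1, 3 to 12 in HFD 2 and 6 to 16 in each ND library, so single cells of the diets overlapped widely. The share of cells with a Vcam1 UMI was 94.8% and 93.8% in HFD and 97.7% and 95.3% in ND. After thinning it was 81.0% in both HFD libraries and 89.7% and 89.3% in the ND libraries. The cell with most Vcam1 gave 1.95% of the class's UMIs in HFD 1 and less in each other library, so no single cell carried the sums.

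The Leydig-like class was made of 3 clusters, numbered 5, 11 and 13, and Vcam1 was lower in HFD in each. Cluster 5 held 1804 ± 24.5 CPM in HFD and 2468 ± 110 CPM in ND (SD, n = 2 each). Cluster 11 held 1549 ± 142 CPM and 2036 ± 0.980 CPM. Cluster 13, whose cells were shallow with a median of 2333 UMIs, held 742 ± 95.0 CPM and 1097 ± 44.5 CPM. The HFD and ND values did not overlap in any of the 3. The clusters split the UMIs of the same 4 libraries whose contrast chose the gene, so this is a description and no added support. The mix of clusters differed between the diets. Cluster 11 made up 43.3% and 44.96% of the class in HFD and 61.7% and 62.8% in ND, and cluster 13, the lowest in Vcam1, 22.1% and 18.6% against 10.6% and 15.2%. Malat1, Neat1 and Meg3, nuclear RNAs, were among the leading genes of cluster 13, and the part of RNA quality was not tested. With the 3 clusters given equal weight, a setting added after the data were seen, the log2 ratio was -0.45. A further cluster of 61 cells, number 9, carried both Leydig and macrophage markers and stayed unnamed. It held 1192 ± 232 CPM in HFD and 1776 ± 96.2 CPM in ND.

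**Figure D3:**
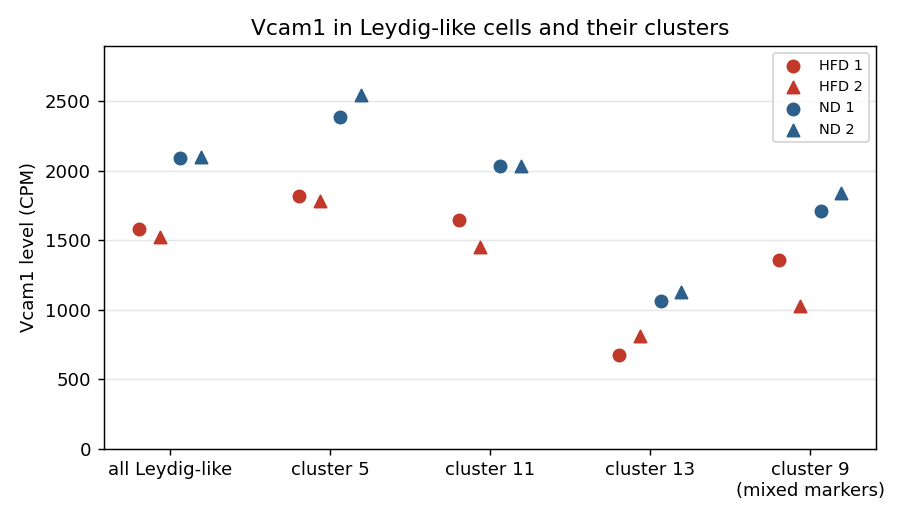
Vcam1 level (CPM, linear axis from 0) in all Leydig-like cells, in their 3 clusters and in the unnamed mixed cluster 9, with 1 point per library. In each column both HFD points (red) lie below both ND points (blue).

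Summed over the whole testis, the difference in Vcam1 was larger. The whole-testis level was 21.2 and 20.2 CPM in the HFD libraries and 38.6 and 40.1 CPM in the ND libraries, a log2 ratio of -0.92 or a 0.53-fold level. Here too the contrast chose the gene, and 34.3% of the 25470 genes tested were called. Leydig-like cells made up 1.76% and 1.91% of cells in the HFD libraries, and 2.67% and 2.80% in the ND libraries. Per 1000 kept cells of any class, Leydig-like cells contributed 184 and 163 Vcam1 UMIs in HFD, against 305 and 322 in ND. Within Leydig-like cells the level was 0.72-fold, as given above. Both the share of these cells and their Vcam1 level were thus lower in HFD, and how the whole-testis difference divides between them was not tested.

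The low Vcam1 counts of the germ-cell classes were also lower in HFD. Pachytene-like and later spermatocytes held 1.75 and 2.26 CPM in HFD and 2.65 and 3.40 CPM in ND, on 534 UMIs, with a log2 ratio of -0.57, in a class where 7.32% of the genes tested were called. Round spermatids held 2.74 and 2.34 against 3.67 and 4.79 CPM, elongating spermatids 2.50 and 3.24 against 4.12 and 4.39 CPM, and early spermatocytes 3.56 and 2.28 against 3.98 and 5.24 CPM. The diets did not overlap in any of these 4 classes as a whole, but they did within 7 of their 14 clusters. In the largest by Vcam1 UMIs, a pachytene-like one, the values were 1.24 and 2.18 CPM in HFD and 2.11 and 3.04 CPM in ND. The HFD mean was the lower one in all 14. Vcam1 was lower in HFD in Leydig-like cells too, and the part of free RNA in the germ-cell values was not tested.

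The other somatic classes with Vcam1 did not share one direction. Fibroblast-like cells gave 49 UMIs (304 CPM) in HFD 1, 20 (174 CPM) in HFD 2, 41 (296 CPM) in ND 1 and 56 (301 CPM) in ND 2. Only HFD 2 was low, and HFD 1 was above both ND libraries. The log2 ratio of -0.29 became 0.014 without HFD 2 and -0.79 without HFD 1. None of the 3431 genes tested in this class was called by edgeR, a background of 0%, and 163 had an unadjusted p under 0.05. DESeq2 also called 0.

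In macrophage-like cells the order was the opposite of that in Leydig-like cells. Vcam1 gave 23 UMIs (106 CPM) in HFD 1 and 23 (120 CPM) in HFD 2, against 5 (21.5 CPM) in ND 1 and 20 (85.4 CPM) in ND 2. The log2 ratio was 1.01, and it ranged from 0.32 without ND 1 to 2.29 without ND 2. In this class 2.6% of the 4647 genes tested were called. Leydig RNA was also lowest there in ND 1. Of the 7 Leydig markers, 6 had UMIs in every library's macrophage-like cells and Lhcgr, the luteinizing hormone receptor, had 0. Their summed level was 407, 167, 77.5 and 256 CPM in HFD 1, HFD 2, ND 1 and ND 2. Insl3, a peptide hormone made by Leydig cells, gave 51, 9, 3 and 15 UMIs there, in the same order. Vcam1 UMIs per Insl3 UMI were 0.451, 2.56, 1.67 and 1.33 in macrophage-like cells and 0.308, 0.317, 0.280 and 0.462 in Leydig-like cells. Of the 71 Vcam1 UMIs, 23, 19, 5 and 12 were in cells with no Insl3 UMI. The part of Leydig RNA in the macrophage-like values was not tested beyond these counts.

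Icam1 was spread over more classes than Vcam1, and no diet difference passed the test. The gene encodes the cytokine-inducible ligand of LFA-1 and lies on the plus strand of chromosome 9 (GRCm38, chr9:21015985-21028817). An antisense gene, Gm47079, overlaps its 3′ end by 511 bases. Leydig-like cells held 54.4% of its 489 UMIs, and macrophage- and lymphocyte-like cells 8.38% each. Mean levels were 59.4 ± 15.7 CPM in lymphocyte-like, 45.8 ± 18.5 in macrophage-like, 38.5 ± 13.5 in fibroblast-like and 37.3 ± 3.29 CPM in Leydig-like cells (SD, n = 4). The ranges of these 4 classes overlapped, so no order among them was resolved. Endothelial-like cells gave 3 Icam1 UMIs, all from HFD 2, and dendritic-like cells 2, too few to place either class beside the others. No Icam1 UMI was found in 312 Sertoli-like cells, which allows a share of cells with a UMI of up to 0.962%.

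The promoter of Icam1 is shown because Ets factors, long known as inputs to this gene, have a short core motif that can be read from its letters. The sequence is the 250 bases before the RefSeq start on the plus strand (GRCm38.p6, chr9:21015690-21015939), from the RefSeq-derived promoter table, which held 3 of the 7 genes. Capitals mark each Ets core CCGGAA on either strand.
Icam1: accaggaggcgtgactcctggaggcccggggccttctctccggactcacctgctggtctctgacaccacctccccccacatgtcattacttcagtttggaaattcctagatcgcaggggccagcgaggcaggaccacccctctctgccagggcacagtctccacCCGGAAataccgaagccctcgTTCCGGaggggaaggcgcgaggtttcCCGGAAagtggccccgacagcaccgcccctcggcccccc
The window held 3 CCGGAA matches, at 86, 65 and 39 bases before the start, with no overlap between them. The windows of the other members in the table, Itga4 and Itgb7, held 0 CCGGAA matches. Shorter or other forms of the core were not counted, and sites of other factors, NF-kB among them, were not searched for. Of 32851 promoter entries, 12% held CCGGAA in the same window. These are matches of letters, not measured binding.

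In Leydig-like cells Icam1 gave 58 UMIs (38.1 CPM) in HFD 1, 59 (40.9 CPM) in HFD 2, 79 (37.5 CPM) in ND 1 and 70 (33.0 CPM) in ND 2. Both HFD values were above both ND values by a small margin in the pooled class, but not within its clusters. Cluster 5, which was richest in Icam1, held 66.9 and 74.1 CPM in HFD and 72.2 and 93.2 CPM in ND. Cluster 11 held 15.8 and 11.4 CPM in HFD and 17.7 and 13.1 CPM in ND, and cluster 13 held 28.1 and 48.4 CPM against 79.9 and 13.4 CPM. The diets overlapped in each cluster, and the HFD mean was the lower one in each. Cluster 5 made up 34.6% and 36.4% of the class in HFD and 27.7% and 22.0% in ND. Its leading genes held Cebpd, Socs3, Angptl4, Egr1 and Gadd45g beside the Leydig markers Cyp17a1 and Cyp11a1. What set these genes and Icam1 high in that cluster was not tested. In the pooled class the log2 ratio was 0.13 ± 0.18 (SE), with an adjusted p of 0.777 in edgeR's quasi-likelihood test with Benjamini-Hochberg adjustment, and it was -0.053 when cells were chosen by a marker gate and -0.24 with the 3 clusters given equal weight. Macrophage-like cells gave 8 and 5 UMIs (37.0 and 26.1 CPM) in the HFD libraries, and 16 and 12 (68.9 and 51.2 CPM) in the ND libraries. Both HFD values were below both ND values, with a log2 ratio of -0.95 ± 0.51 and an adjusted p of 0.507 (edgeR). With cells chosen by the marker gate this ratio was -0.49 (adjusted p 0.865, edgeR). In the larger macrophage-like cluster the values were 42.7 and 24.3 CPM in HFD and 69.7 and 71.9 CPM in ND, while the smaller one held 5 Icam1 UMIs. In lymphocyte-like cells the values of 70.3, 38.0, 57.3 and 72.1 CPM (HFD 1, HFD 2, ND 1, ND 2) overlapped, with an adjusted p of 0.901 (edgeR).

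The level of Icam1 also differed among the Leydig-like clusters. Over all libraries Icam1 stood at 76.0 CPM in cluster 5, 38.7 CPM in cluster 13 and 14.7 CPM in cluster 11. Vcam1 followed another order, at 2126, 886 and 1874 CPM in clusters 5, 13 and 11. Of the 196 Leydig-like cells with an Icam1 UMI, 195 also had a Vcam1 UMI, as had 1207 of all 1262 Leydig-like cells. Over the whole testis Icam1 stood at 0.756, 0.844, 0.997 and 0.983 CPM in HFD 1, HFD 2, ND 1 and ND 2. Its log2 ratio there was -0.30 ± 0.14 (SE), with an adjusted p of 0.114 (edgeR).

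Icam2, the ligand of LFA-1 found on resting endothelium, gave 21 UMIs in all (GRCm38, chr11:106377656-106388075, minus strand). The 44 endothelial-like cells gave 9 of them, or 42.9%, 2 or 3 in every library. Their mean level was 69.0 ± 25.3 CPM (SD, n = 4). The 1262 Leydig-like cells gave 6 UMIs, 5 of them in ND 1. Every library held Icam2 UMIs in its endothelial-like cells, although there were only 9 to 13 such cells in each. The gene passed the filter on low counts in no comparison, and a diet difference could not be tested at this depth.

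The integrin subunits were found at their highest levels in the leukocyte-like classes. Itga4 (GRCm38, chr2:79255426-79333123, plus strand) encodes the alpha 4 subunit that binds VCAM-1. It stood at 75.2 ± 17.4 CPM in lymphocyte-like and 39.7 ± 18.7 CPM in macrophage-like cells (SD, n = 4). In Leydig-like cells it gave 3 UMIs. Itga4 shares 2581 bases at its 3′ end with Cerkl on the opposite strand, and how the authors' counting used strand is not given in the sources used here, so reads of the pair might be mixed.

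Itga4 was the only one of the other 6 members called between the diets, and it rose in HFD over the whole testis. The whole-testis sums were 155 UMIs (1.07 CPM) in HFD 1, 159 (1.17 CPM) in HFD 2, 86 (0.650 CPM) in ND 1 and 99 (0.737 CPM) in ND 2. The groups did not overlap. The log2 ratio was 0.69 ± 0.15 (SE, n = 2 libraries a group) with an adjusted p of 0.00203 (edgeR), and leaving out each library in turn gave 0.59 to 0.79. Of the 5 other members tested there, 1 was called higher, beside 15.3% of all genes called higher and 34.3% called in either direction. Icam2 was not tested.

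Most Itga4 UMIs were counted in germ-cell classes. Pachytene-like and later spermatocytes, the cells in meiotic prophase and the divisions, gave 277 of 499 UMIs, or 55.5%, at a mean of 1.23 ± 0.35 CPM. They gave 86 (1.37 CPM), 99 (1.60), 36 (0.783) and 56 (1.18 CPM) in HFD 1, HFD 2, ND 1 and ND 2. The HFD values were above the ND values, by a margin that was small for ND 2. In a fit within that class, added after these values were seen, the log2 ratio was 0.62 ± 0.21 (SE) with an adjusted p of 0.0909 (edgeR), and 0.36 without ND 1 and 0.94 without ND 2, so the difference within the class was not called. The class made up 25.2% and 29.8% of cells in the HFD libraries and 22.3% and 22.0% in the ND libraries, so its share was also higher in both HFD libraries, and the part of that share in the whole-testis rise was not tested. None of the 3 members tested there was called by edgeR or by DESeq2, beside 7.32% of all genes called by edgeR. Without adjustment 1 had a p under 0.05 in edgeR, as had 22.8% of all genes.

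Itga4 and Itgb7 each gave 53 UMIs in lymphocyte-like cells, and 277 and 1 in pachytene-like and later spermatocytes. The part of free RNA in the spermatocyte counts was not tested. Within the germ cells, Itga4 was densest in a shallow pachytene-like cluster with a median of 3266 UMIs per cell, at 5.72, 5.99, 2.79 and 4.12 CPM in HFD 1, HFD 2, ND 1 and ND 2. An unnamed germ cluster, with a median of 1837 UMIs per cell, held 4.57, 4.39, 2.31 and 2.33 CPM. In both clusters the HFD values were above the ND values. In the 2 deepest pachytene-like clusters, which gave 96 and 84 of the UMIs, the diets overlapped. One held 0.927 and 1.16 CPM in HFD and 0.549 and 0.985 CPM in ND, and the other 1.15 and 1.20 CPM in HFD and 0.853 and 1.17 CPM in ND.

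In leukocyte-like cells the Itga4 difference did not pass the test. Lymphocyte-like cells gave 84.4, 92.3, 71.6 and 52.4 CPM in HFD 1, HFD 2, ND 1 and ND 2, with a log2 ratio of 0.46 ± 0.42 and an adjusted p of 0.748 (edgeR). These rest on 18, 17, 10 and 8 UMIs. Macrophage-like values of 27.7, 62.7, 21.5 and 47.0 CPM overlapped, with an adjusted p of 0.952 (edgeR), and their log2 ratio of 0.31 became -0.37 without HFD 2.

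**Figure D4:**
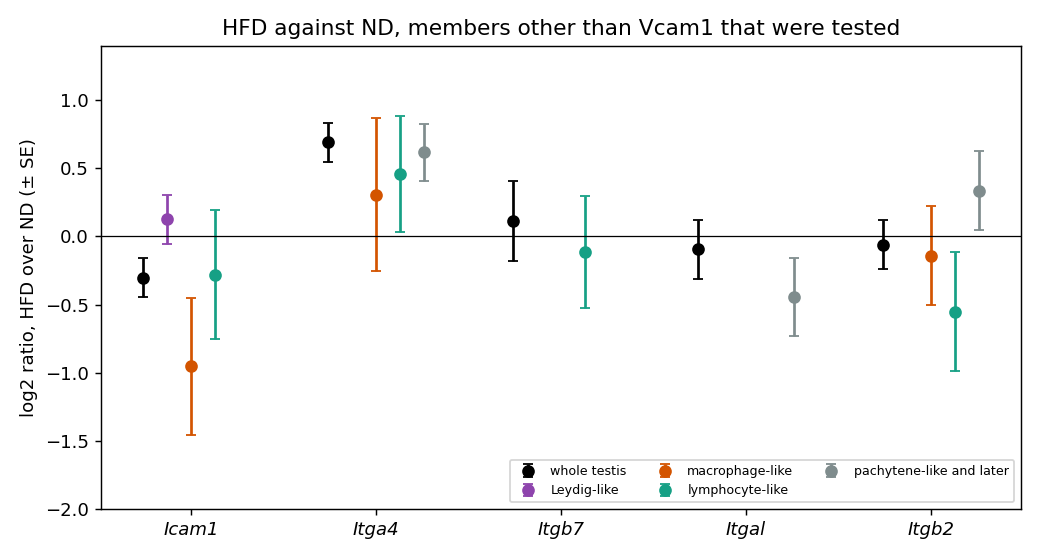
Log2 ratio of HFD over ND for the members other than Vcam1 that could be tested, in each compartment, with bars of 1 SE from the fit to 2 libraries a group. Itga4 in the whole testis, at 0.69, is the only ratio called after adjustment over all genes.

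Itgb7 (GRCm38, chr15:102215995-102231944, minus strand) encodes the beta 7 subunit, the partner of alpha 4 on gut-homing lymphocytes. It gave 94 UMIs in all, 56.4% of them in lymphocyte-like cells. Another 13.8% came from the 15 dendritic-like cells, where 9 cells had a UMI. Lymphocyte-like levels were 89.1 and 59.7 CPM in HFD 1 and HFD 2, and 100.2 and 59.0 CPM in ND 1 and ND 2. The diets overlapped fully, with a log2 ratio of -0.11 ± 0.41 (SE) and an adjusted p of 0.952 (edgeR). Over the whole testis the log2 ratio was 0.11 ± 0.29 with an adjusted p of 0.804 (edgeR).

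Itgal (GRCm38, chr7:127296260-127335138, plus strand) encodes the alpha L subunit of LFA-1. Its level was highest in lymphocyte-like cells, at 37.5, 54.3, 71.6 and 19.7 CPM in HFD 1, HFD 2, ND 1 and ND 2. The ND libraries held both the highest and the lowest value. Of its 250 UMIs, however, 60.4% lay in the 4 germ-cell classes at 0.18 to 0.47 CPM, with 100 UMIs in pachytene-like and later spermatocytes. The deepest pachytene-like cluster gave 54 of these from 2378 cells. The whole-testis log2 ratio was -0.09 ± 0.22 (SE) with an adjusted p of 0.770 (edgeR), and it changed sign when HFD 1 or ND 1 was left out.

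Itgb2 (GRCm38, chr10:77530252-77565708, plus strand) encodes the beta 2 subunit shared by LFA-1 and the other leukocyte beta 2 integrins. It stood at 81.9 ± 24.2 CPM in macrophage-like and 70.9 ± 29.7 CPM in lymphocyte-like cells (SD, n = 4), with overlapping ranges, and at 164.9 ± 63.3 CPM in dendritic-like cells, which rest on 9 UMIs. By UMIs, pachytene-like and later spermatocytes gave 93 of 313, or 29.7%, at 0.447 and 0.485 CPM in HFD and 0.392 and 0.357 CPM in ND. These did not overlap, but the log2 ratio of 0.34 ± 0.29 (SE) was not called, with an adjusted p of 0.544 (edgeR). Macrophage-like values were 50.8, 109.7, 86.1 and 81.1 CPM in HFD 1, HFD 2, ND 1 and ND 2. The 2 HFD libraries lay on either side of the ND libraries. The adjusted p was 0.976 in macrophage-like cells, 0.684 in lymphocyte-like cells and 0.825 in the whole testis (edgeR). Across the 12 classes the genes most like Itgb2 were Was, Hmgb1-ps8, Cd53, Laptm5 and Gm26740, with r of 0.996 for each. Was and Cd53 encode a regulator of actin in blood cells and a leukocyte tetraspanin. Hmgb1-ps8 is a pseudogene, and its reads may be shared with near-identical copies.

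Integrin chains act as pairs, but both mRNAs were seldom caught in the same cell. Of the 289 lymphocyte-like cells, 27 had an Itgal UMI, 44 an Itgb2 UMI and 5 both. Itga4 was found in 44 and Itgb7 in 45 of them, with both in 8, and Itga4 was found with Itgb1 in 12. Of the 316 macrophage-like cells, 30 had Itga4, 7 had Itgb7 and none had both, while 12 had Itga4 and Itgb1. Counts this low per cell miss most molecules, so they do not show which pairs a cell makes.

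Across the leukocyte-like classes, 0 of the 3 members tested in macrophage-like cells and 0 of the 4 tested in lymphocyte-like cells were called by edgeR. None had an unadjusted p under 0.05, and DESeq2 called 0 in each. The background was 2.6% and 1.87% of genes called, so these counts hold little information in so few genes. Vcam1 had a level in macrophage-like cells but is left out of these counts.

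A list of 74 other genes of the adhesion cascade was read beside the 7. Over the whole testis 71 passed the filter, and 4 were called higher and 18 lower in HFD. The 22 called were 31.0% of the list, against 34.3% of all genes, so the list was called no more often than the background. By direction, 5.63% of the list was called higher, against 15.3% of all genes, and 25.4% lower, against 18.9%. Its median log2 ratio was -0.21, against -0.020 for all genes. Macrophage-like cells made up 0.457% and 0.496% of cells in HFD and 0.643% and 0.694% in ND. The Leydig-like share was lower in HFD too, and the part of these shares in the list's median was not tested. The naming rule gave 3 of these genes. Itgad, the alpha D integrin subunit, fell from 36.3 and 37.8 CPM in ND to 28.5 and 28.8 CPM in HFD. Its log2 ratio was -0.36 (adjusted p 3.9e-05, edgeR). Each library held 3928 to 5082 Itgad UMIs, of which Leydig-like cells gave 10 to 15. Pachytene-like and later spermatocytes gave 236 to 282 per library. Itgad did not pass the filter in macrophage- or lymphocyte-like cells, and where its other UMIs lay was not worked out. Round spermatids made up 8.13% and 8.19% of cells in HFD and 10.3% in each ND library. The part of cell shares in the fall of Itgad was not tested. Rela, the p65 subunit of NF-kB, rose from 21.6 and 21.4 CPM in ND to 24.1 and 25.4 CPM in HFD (log2 ratio 0.21, adjusted p 0.00248, edgeR). Tln1, the talin that activates integrins, rose by 0.14 (adjusted p 0.0123, edgeR), and lost the call without HFD 1 (adjusted p 0.0900, edgeR). Within pachytene-like and later spermatocytes, whose share of cells was higher in HFD, neither Rela nor Tln1 was called. That class gave 2380 and 2445 of the 3511 and 3462 Rela UMIs in the HFD libraries and 1858 and 1872 of the 2862 and 2868 in the ND libraries. Its Rela log2 ratio was -0.018 (adjusted p 0.847, edgeR). Tln1 had a log2 ratio of 0.058 there (adjusted p 0.349, edgeR). The part of that share in the whole-testis rises was not tested.

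In Leydig-like cells 35 of the list's genes were tested and 3 called, 8.57% beside the background of 4.48%. The list's median log2 ratio was 0.00485, and that of all genes -0.0096. Adam10, a protease that sheds membrane proteins, fell from 56.9 and 57.9 CPM in ND 1 and ND 2 to 36.1 and 35.4 CPM in HFD 1 and HFD 2. Its log2 ratio was -0.72 ± 0.16 with an adjusted p of 0.00876 (edgeR). Irf1, an interferon-responsive transcription factor, rose, from 49.8 and 31.5 CPM in ND to 76.1 and 59.6 CPM in HFD (log2 ratio 0.70, adjusted p 0.0227, edgeR). Itgae, the alpha E integrin subunit, rose from 85.4 and 89.9 CPM to 127.3 and 120.6 CPM (log2 ratio 0.46, adjusted p 0.0185, edgeR). Itgae was higher in the other classes tested, at means of 402 CPM in HFD and 397 CPM in ND in pachytene-like and later spermatocytes and at 189 CPM or more in each library of the others. The part of free RNA from those cells in the Leydig-like values was not tested. With the 3 clusters given equal weight the log2 ratios were -0.45 for Adam10, 0.37 for Irf1 and 0.46 for Itgae, and in cluster 13 Adam10 was higher in HFD on average, on 14 UMIs. DESeq2 called none of the 3, with adjusted p from 0.418 to 0.467. Without HFD 1 edgeR called none of them either, with adjusted p of 0.0549, 0.213 and 0.157 for Adam10, Irf1 and Itgae. Irf1 also lost its call without ND 2 (log2 ratio 0.40, adjusted p 0.246, edgeR), its ratio being 1.08 without ND 1, and Itgae without ND 1 (adjusted p 0.0730, edgeR). Itgae lost it as well with doublets kept (log2 ratio 0.33, adjusted p 0.138, edgeR). With cells chosen by the marker gate none of the 3 was called (adjusted p 0.163, 0.529 and 0.159 for Adam10, Irf1 and Itgae, edgeR). Over the alternatives that kept all 4 libraries, DESeq2 and the gate among them, each log2 ratio kept its sign. The ratios ran from -0.87 to -0.45 for Adam10, 0.37 to 0.74 for Irf1 and 0.33 to 0.94 for Itgae.

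In macrophage-like cells 27 of the list's genes were tested, and 3 were called, all lower in HFD (11.1%, beside a background of 2.6% in either direction and 2.13% lower). The list's median log2 ratio was -0.091, against -0.0012 for all genes. The 10 macrophage markers had summed levels, lower in HFD as well, of 14413 and 15932 CPM in HFD and 18410 and 19653 CPM in ND. Their part in these differences was not tested. Il1b, the interleukin 1 beta gene, fell, with 102 and 115 CPM in HFD and 401 and 508 CPM in ND. Its log2 ratio was -2.12 ± 0.24 with an adjusted p of 9.1e-16 (edgeR). Il1b and Cxcl2 were among the leading genes of 1 of the 2 macrophage-like clusters, number 12, which held 18.3% and 19.4% of the class in HFD and 34.4% and 33.3% in ND. Il1b stood at 482 and 705 CPM in HFD and 1397 and 1601 CPM in ND within cluster 12, and at 42.7 and 18.2 against 52.3 and 65.9 CPM within cluster 10. The HFD values were the lower ones in both, and with equal weight for the clusters the log2 ratio was -1.32. Rap1b, a GTPase of integrin activation, fell by 0.97 on the log2 scale (adjusted p 0.00279, edgeR), a call lost in 6 of 12 alternatives. Its log2 ratio was -1.075 to -0.898 with 1 library left out and -1.005 to -0.843 in the other alternatives. The chemokine gene Ccl7 fell by 1.08 (adjusted p 0.0359, edgeR), a call that was lost in 9 of 12 alternatives. Its direction was the same in all 12. As the naming rule took only genes whose diets did not overlap, leaving out 1 library could hardly turn it. Without HFD 1 or without HFD 2 no gene was called in this class. A lone HFD library is there assumed to vary as the ND pair does, so these p-values rest on the spread of that pair, and Il1b kept a log2 ratio of -2.05 and -2.22 with adjusted p of 0.772 and 0.823 (edgeR). Rap1b also lost its call without ND 1 (adjusted p 0.121, edgeR) and Ccl7 without ND 2 (adjusted p 0.656, edgeR). DESeq2 called only Il1b of the 3.

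In lymphocyte-like cells 0 of the 14 list genes tested were called by edgeR or DESeq2, beside a background of 1.87% called by edgeR. Without adjustment 5 had a p under 0.05 in edgeR (all genes, 11.95%). In fibroblast-like cells 0 of 10 were called by either tool, and 2 had an unadjusted p under 0.05 in edgeR (all genes, 4.75%). In the added fit within pachytene-like and later spermatocytes, 2 of 41 were called by edgeR, 1 higher and 1 lower. That is 4.88%, beside 7.32% of all genes, and DESeq2 called 1.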

How the data were processed

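Per the file headers, the deposited matrices are 10x matrices written by software version 3.0.2, and the authors' values are raw UMI counts per gene and barcode, not normalised. The submitters' processing notes name mm10, and the aligner and annotation are not given in the sources used here. All 55450 gene IDs matched GENCODE M21 (GRCm38), whose coordinates are printed.

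Barcodes were kept where they held 200 genes or more, with no more than 20% of UMIs mitochondrial. Scrublet doublets, 3.1% to 5.9% per library, were left out. Cells were clustered in scanpy 1.11.5 (2000 genes, 30 principal components, Leiden resolution 1) without the 7 members, and somatic cells were clustered again. Clusters were named from marker lists. UMIs were summed per library and class and tested with edgeR 4.0.16 (TMM, quasi-likelihood, Benjamini-Hochberg adjustment over all genes, threshold 0.05) where each library held at least 20 cells. DESeq2 1.42.0 was an alternative. On simulated data with 200 genes changed 2-fold, 83.5% were recovered in the whole testis, 61.5% in Leydig-like, 43% in macrophage-like and 49% in lymphocyte-like cells.

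The members, the marker lists and the adhesion list were chosen with earlier results of these data known. Named genes were all 7 members, the 5 genes most like Vcam1 and Itgb2 in level across classes, and up to 4 list genes per direction and compartment. The list genes needed an adjusted p under 0.05, groups that did not overlap and a mean level of 20 CPM or more, and those with the largest log2 ratios were taken. Somatic clusters in which lists of 2 lineages scored 1 or more stayed unnamed. The endothelial, pericyte, myoid and fibroblast lists counted as 1 lineage, so the endothelial-like cluster (score 2.84) also scored 2.56 on the pericyte list, and the fibroblast-like one (2.46) 1.69 on the myoid list. No label gives a batch.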

Additional observations from a re-analysis of the deposited data

Results flagged for a closer look

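The log2 ratio of HFD over ND for Vcam1 was 1.48 higher in macrophage-like than in Leydig-like cells. Both HFD libraries lay above both ND libraries in the first class and below them in the second. For Icam1 the order was turned round, with a ratio 1.08 higher in Leydig-like than in macrophage-like cells. Within each of the 3 Leydig-like clusters, however, the HFD mean of Icam1 was below the ND mean, as in macrophage-like cells. The macrophage-like ratio of Icam1 was -0.49 with cells chosen by a marker gate, against -0.95, and the Leydig-like ratio was -0.053 with that gate and -0.24 with equal weight for the 3 clusters, against 0.13. These pairs were flagged because the diets did not overlap in either pooled class and differed in opposite directions. The share of all genes that meet this rule was not worked out, so the pairs have no background to be read against. The differences themselves were not tested. The macrophage-like values rest on 71 Vcam1 and 41 Icam1 UMIs in all.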

How the results depend on the processing

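Where 1 library was left out, the lone library of a group was assumed to vary like the other pair. The log2 ratio of Vcam1 kept its sign under every alternative run in the whole testis, Leydig-like and macrophage-like cells. The diets did not overlap in any of these, so leaving out 1 library could hardly turn the sign. All alternatives reuse the libraries whose contrast chose the gene, so the kept sign adds no support. In Leydig-like cells it was -0.40 with doublets kept and -0.65 with cells chosen by a marker gate. Leaving out 1 library gave -0.97 to -0.87 in the whole testis, -0.49 to -0.45 in Leydig-like, 0.32 to 2.29 in macrophage-like and -0.79 to 0.014 in fibroblast-like cells. Leydig-like cells held 71.4% of Vcam1 UMIs with doublets kept, against 82.5%. Thinning brought cells with a Vcam1 UMI from 95.6% to 86.2% in Leydig-like and from 14.6% to 10.7% in macrophage-like cells.

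Leaving out 1 library turned the sign of uncalled ratios. These ran in the whole testis from -0.078 to 0.32 for Itgb7, -0.35 to 0.21 for Itgal and -0.26 to 0.12 for Itgb2. In macrophage-like cells they ran from -0.37 to 0.96 for Itga4 and -0.78 to 0.32 for Itgb2, and in lymphocyte-like cells from -0.80 to 0.079 for Icam1, -0.45 to 0.31 for Itgb7 and -1.01 to 0.10 for Itgb2. Reversed values were -0.078 for whole-testis Itgb7, 0.054 and 0.21 for Itgal and 0.12 for Itgb2. They were -0.37 and -0.16 for macrophage-like Itga4 and 0.32 for Itgb2, and 0.079, 0.14, 0.31 and 0.10 for lymphocyte-like Icam1, Itgb7 (2 libraries) and Itgb2. With doublets kept, lymphocyte-like Itgb7 was 0.20. With the marker gate, Leydig-like Icam1 was -0.053, and with equal weight for the 3 clusters -0.24. The cause was not tested.

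Replicate numbers in the labels share only a number, and 2 numbers are too few to show a pairing (correlation of same-numbered deviations 0.10 over the whole testis and -0.062 in Leydig-like cells). With a replicate block, list genes called higher were 7 against 4 in the whole testis and 4 against 2 in Leydig-like cells, and 1 gene was called in fibroblast-like cells against 0. The block also ended the call of Ccl7 in macrophage-like cells (adjusted p 0.0669, edgeR).

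Counts of calls moved as follows. DESeq2 called 9 list genes lower in the whole testis against 18. In Leydig-like cells it called 86 genes against 519 and 0 list genes in either direction, in macrophage-like cells 22 against 121 with 1 list gene lower, in lymphocyte-like cells 11 against 68, and in Sertoli-like cells 0 against 5. With no filter on low counts, 4 list genes were called higher in Leydig-like cells, 26 genes and 1 list gene lower in macrophage-like cells, and 1 gene in fibroblast-like cells. The marker gate called 38 genes and 0 list genes in Leydig-like cells, and 69 genes with 1 list gene lower in macrophage-like cells. It left too few lymphocyte-like cells and was not run there. With at most 10% mitochondrial UMIs there were 193 genes and 2 list genes lower in Sertoli-like, 43 genes in lymphocyte-like and 1 gene in fibroblast-like cells. With doublets kept there were 1 gene in Sertoli-like, 71 in macrophage-like, 23 in lymphocyte-like and 1 in fibroblast-like cells. At resolution 2 there were 0 genes in Sertoli-like and 2 in fibroblast-like cells, and 1 list gene higher in macrophage-like cells. Leaving out 1 library gave 5098 to 8444 genes in the whole testis (2 to 6 list genes higher, 11 to 19 lower), 213 to 518 in Leydig-like cells (1 to 4 higher, 0 to 1 lower), 0 to 88 in macrophage-like cells (0 to 2 lower), 28 to 45 in lymphocyte-like, 0 to 12 in Sertoli-like and 1 to 3 in fibroblast-like cells. Itga4 kept its whole-testis call under each alternative, with adjusted p from 4.2e-05 to 0.0262 (edgeR or DESeq2).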
